A study of Mus musculus with 16 samples.

Results

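The let-7 genes described here are the 6 mouse family members that lie outside the Mir99/Mir100/Mir125 clusters: Mirlet7a-1, Mirlet7f-1, Mirlet7d, Mirlet7f-2, Mir98 and Mirlet7g. They were chosen by name and not by a rule on their values, though with earlier results of these data known. They are 6 of 53801 genes in the count table. The study sequenced small RNA of ventricular tissue, with 4 libraries of 4 hearts for each of the postnatal days 1 (P01), 4 (P04), 9 (P09) and 23 (P23). The pups were males and females of the strain C57BL/6JOlaHsd, with no genetic change or treatment. Pups of P01, P04 and P09 had only mother's milk and pups of P23 also had mouse chow, so that age and diet cannot be told apart in any comparison with P23. The P01 and P09 ventricles lie on either side of the loss of the regenerative capacity of the newborn heart. Whole ventricle holds cardiomyocytes, endothelial cells, fibroblasts and blood, and fewer cells of a type and less RNA per cell cannot be told apart in such samples.

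let-7 was first found in Caenorhabditis elegans, where it times the passage from larval to adult cell fates, and its family in mammals accumulates as tissues differentiate. A let-7 precursor is cut by Drosha and Dicer, and the RNA-binding proteins Lin28a and Lin28b block this processing in embryonic and newborn tissue. The mature strand, loaded on an Argonaute protein, represses mRNAs for growth and cell cycle factors such as Hmga2, Igf2bp1, Myc and Lin28b itself, through pairing of its seed.

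All 6 genes encode a mature 5p strand of 22 bases, taken here from RefSeq (GRCm38.p6). The strands are shown because they state which members can be told apart by sequence. Capitals mark the seed, bases 2 to 8 from the 5′ end.
let-7a-5p (Mirlet7a-1): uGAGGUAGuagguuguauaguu
let-7f-5p (Mirlet7f-1 and Mirlet7f-2): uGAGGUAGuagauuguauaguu
let-7d-5p (Mirlet7d): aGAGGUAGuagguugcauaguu
miR-98-5p (Mir98): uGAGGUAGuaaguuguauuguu
let-7g-5p (Mirlet7g): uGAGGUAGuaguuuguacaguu

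The 6 genes hold 5 different strands with 1 shared seed. Counted from the 5′ end and with let-7a-5p first, let-7f-5p differs by G12A, let-7d-5p by U1A and U16C, miR-98-5p by G11A and A19U, and let-7g-5p by G12U and U18C. Mirlet7f-1 and Mirlet7f-2 give the same strand. Mirlet7a-2, which belongs to the Mir100 cluster and is not among the 6 genes, gives the same strand as Mirlet7a-1. Of 14 let-7 genes looked at, 13 hold this seed, the exception being Mir7j (let-7j). The hairpins of the copies are shown with the mature 5p strand in capitals, since the bases around it are what sets them apart.
Mirlet7f-1 hairpin: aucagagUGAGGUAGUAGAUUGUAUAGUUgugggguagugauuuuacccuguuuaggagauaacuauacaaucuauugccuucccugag
Mirlet7f-2 hairpin: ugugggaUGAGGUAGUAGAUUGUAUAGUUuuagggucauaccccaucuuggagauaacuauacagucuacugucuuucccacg
Mirlet7a-1 hairpin: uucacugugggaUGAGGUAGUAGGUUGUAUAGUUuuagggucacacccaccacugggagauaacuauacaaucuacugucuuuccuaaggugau
Mirlet7a-2 hairpin: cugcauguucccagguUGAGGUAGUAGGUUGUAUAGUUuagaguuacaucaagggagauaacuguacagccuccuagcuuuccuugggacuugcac

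The longest run shared by the hairpins of Mirlet7f-1 and Mirlet7f-2 is 22 bases, which is the mature strand itself. For Mirlet7a-1 and Mirlet7a-2 it is 23 bases. A read that ends within the mature strand therefore cannot be given to one copy, and the sources do not state how such reads were counted. The split of counts between these copies is uncertain for that reason, and the counts are per precursor gene, with both arms together.

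On chromosome 13 (GRCm38.p6, minus strand) Mirlet7a-1 lies at 48538179 to 48538272, Mirlet7f-1 at 48537829 to 48537917 and Mirlet7d at 48536012 to 48536114. The 3 genes span 2261 bases, with 261 bases between Mirlet7a-1 and Mirlet7f-1 and 1714 bases between Mirlet7f-1 and Mirlet7d, and no other RefSeq gene overlaps them. On the X chromosome (plus strand) Mirlet7f-2 lies at 151912346 to 151912428 and Mir98 at 151913214 to 151913321, 785 bases apart and both within Huwe1, which encodes a ubiquitin ligase. Mirlet7g lies on chromosome 9 (plus strand) at 106178840 to 106178927 within Wdr82, which encodes a subunit of histone methyltransferase complexes.

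The libraries held 2301587 to 5553530 counts in total (median 4069954.5), of which 89817 to 175231 fell on miRNA genes. Mitochondrial transcripts and rRNA fragments took most of the rest, so that the scale on which miRNAs are compared affects their direction. Values below are normalized counts, scaled by TMM factors over all genes, unless a share of the miRNA counts is named. In the 7 cardiomyocyte marker genes, all of them with counts, the summed level was 4631 to 4994 CPM (counts scaled to the total of a library) in P01 libraries, 6509 to 8250 in P04, 8907 to 11739 in P09 and 6486 to 10428 in P23 libraries. The 5 erythroid genes summed to 953 to 1363 CPM at P23 and 331 to 368 at P01, and the 5 leukocyte genes to 21.8 to 30.5 at P23 and 10.0 to 11.9 at P01. The 5 endothelial genes and the 7 fibroblast and smooth muscle genes summed to 60.6 to 66.8 and 279 to 406 CPM at P23, against 116 to 134 and 777 to 963 CPM at P09, their highest time point. No defining marker was at 0 in a time point, and the part of these differences in the let-7 values was not tested. The marker sums are per total count, unlike the TMM-scaled let-7 values. Mitochondrial transcripts took 40.9% to 44.1% of the counts at P23 and 17.6% to 19.7% at P01. The direction of a marker sum between days may therefore differ on the let-7 scale, on which these sums were not computed.

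Over the 16 libraries Mirlet7g took 214103 counts, Mirlet7f-1 211707, Mirlet7f-2 54631, Mirlet7a-1 44847 and Mir98 16719. The mature strands shown above have 1 length, whereas the precursor genes run from 83 bases (Mirlet7f-2) to 108 bases (Mir98). Whether length enters the differences between these sums was not tested. The sums of Mirlet7f-1, Mirlet7f-2 and Mirlet7a-1 remain uncertain, since reads of a shared strand cannot be given to one copy. Mirlet7d had 0 counts in each of the 16 libraries, which allows a level of up to 0.540 CPM in the deepest library and 1.30 in the shallowest (3 counts, counting error only). This limit holds only if reads of the gene's own strand were counted for it, which the sources used here do not state. Its neighbours Mirlet7a-1 and Mirlet7f-1 had at least 1487 and 7001 counts in every library. Mirlet7b, Mirlet7c-2 and Mirlet7i were likewise at 0 in every library, and why these genes hold no counts was not tested.

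Together the 6 genes took 21.6% ± 2.17 (SD, n = 4) of the miRNA counts at P01, and 26.8% ± 1.30 on P04, 28.1% ± 1.83 on P09 and 32.8% ± 2.17 on P23. The lowest P23 library stood at 29.9% and the highest P01 library at 23.5%. All let-7 genes together took 26.1% ± 1.83 at P01, then 32.0% ± 1.26 (P04), 33.7% ± 2.03 (P09) and 40.1% ± 1.77 (P23). Of the let-7 counts, the 6 genes held 81.5% ± 2.50 at P23 and 82.6% ± 2.73 at P01. Within the 6 genes, the chromosome 13 neighbours held 49.5% ± 4.34 at P23 and 46.4% ± 3.82 at P01. Mirlet7f-2 held 12.8% ± 1.34 at P23 and 8.62% ± 1.54 at P01, while Mir98 held 2.17% ± 0.169 at P23 and 4.73% ± 0.610 at P01.

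**Figure D1:**
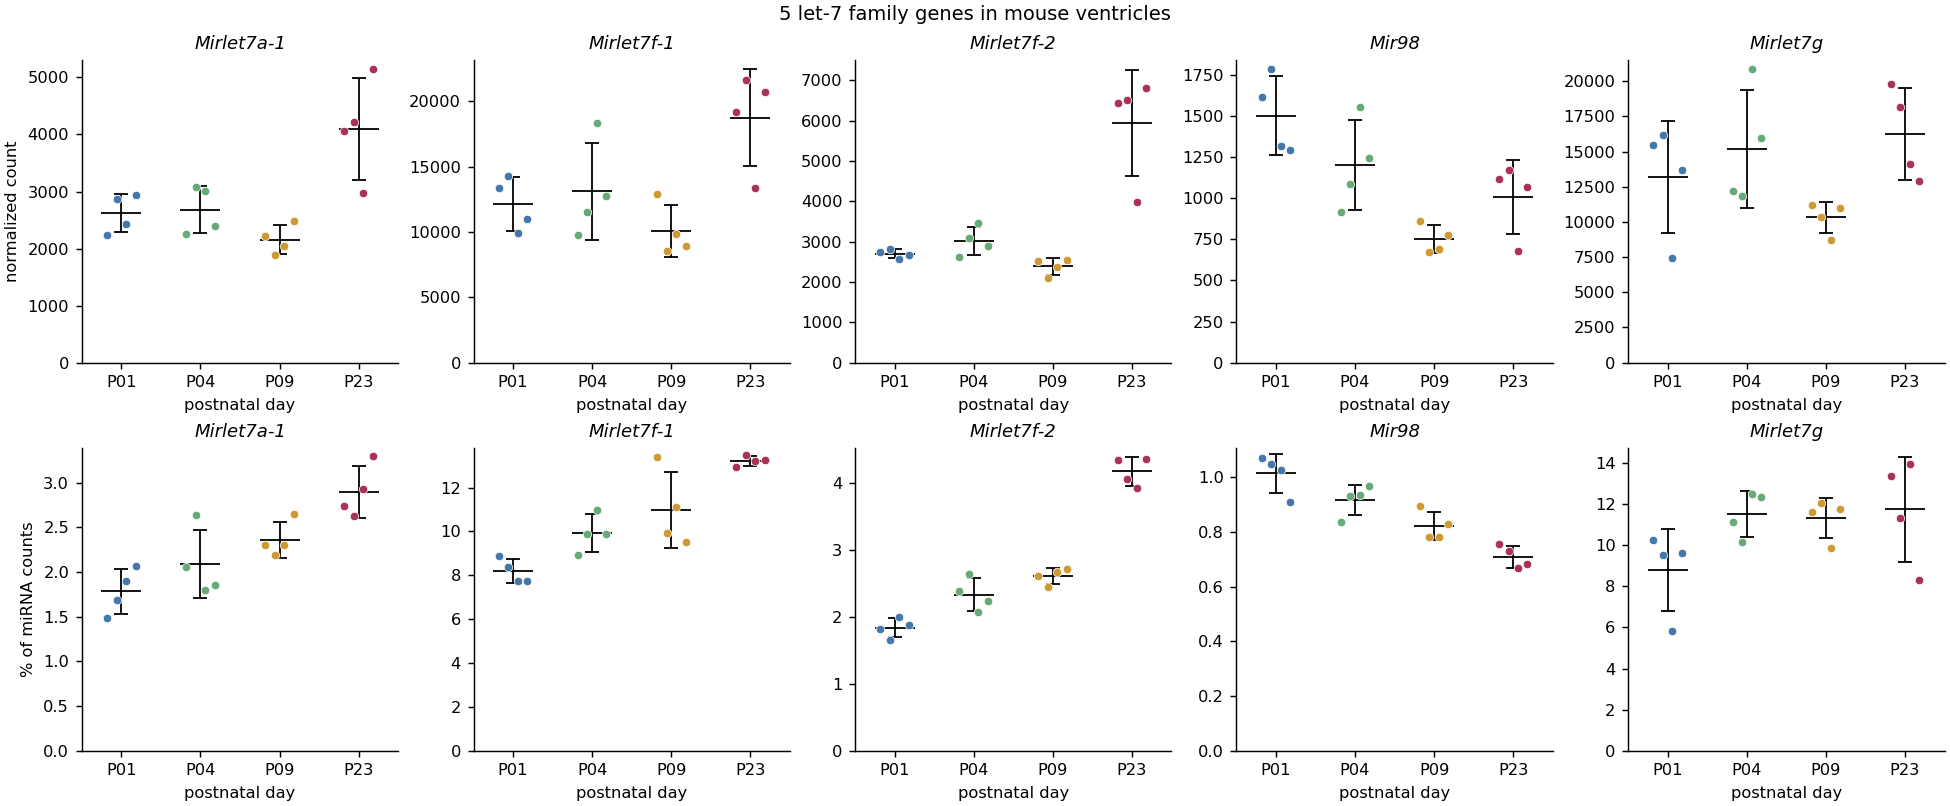
Normalized counts (upper row) and percent of the miRNA counts (lower row) of 5 let-7 genes by postnatal day, with 1 point per library and bars at the mean and SD of 4 libraries. Mirlet7f-2 reached 3991 to 6808 normalized counts at P23 and at most 3461 at P01, P04 and P09, and Mir98 was highest at P01 on both scales.

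On the chromosome 13 locus, Mirlet7a-1 had 2246, 2865, 2425 and 2934 normalized counts at P01 and 2257, 3076, 3008 and 2394 at P04. It had 2222, 1882, 2044 and 2477 at P09 and 4054, 4216, 2973 and 5141 at P23. The P23 libraries all lay above the P09 libraries, while the lowest P23 library lay within the range of P04. Mirlet7f-1, its neighbour with more counts, had 13379, 14287, 9888 and 11025 normalized counts at P01 and 9762, 11521, 18331 and 12777 at P04. It had 12933, 8538, 9875 and 8908 at P09 and 19186, 21644, 13379 and 20679 at P23. The order of the time points by mean was P09, P01, P04 and P23 for both genes, and in that order the libraries of neighbouring time points overlapped. For Mirlet7a-1 the P23 libraries lay apart from those of P09 and P01, and for Mirlet7f-1 from those of P09.

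On the X chromosome, Mirlet7f-2 had 2740.4, 2822, 2564 and 2677 normalized counts at P01 and 2613, 3086, 3461 and 2893 at P04. It had 2527, 2099.8, 2378 and 2539.9 at P09 and 6441, 6515, 3991 and 6808 at P23. All P23 libraries exceeded all others, and the libraries of P09 lay below those of P01. Its neighbour Mir98 had 1615, 1784, 1315 and 1295 normalized counts at P01 and 917, 1085, 1556 and 1248 at P04. It had 863, 673, 694 and 774 at P09 and 1117, 1173, 677 and 1066 at P23. Mir98 was the member with its highest mean at P01, and its P09 libraries all lay below its P01 libraries. Its order by mean was P09, P23, P04 and P01, with overlap between neighbours.

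Mirlet7g on chromosome 9 had 15477, 16200.2, 7463 and 13658 normalized counts at P01 and 12210.5, 11811, 20835 and 15937 at P04. It had 11224, 10361, 8749 and 10982 at P09 and 19809.7, 18157, 14151 and 12937 at P23. All P23 libraries lay above the P09 libraries, and P01 spread across the whole range of P09. Its order by mean was P09, P01, P04 and P23, with overlap between neighbours.

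The first comparison, P04 against P01, covers the days just after birth. A miRNA counted as upregulated or downregulated where the adjusted p was under 0.01, the fold change exceeded 1.8 and the mean reached 300 normalized counts in some time point. None of the 5 tested members passed this test in edgeR, beside 1.52% of the 66 miRNA genes with such a mean that were upregulated and 7.58% that were downregulated. The log2 fold changes ran between -0.32 for Mir98 and 0.20 for Mirlet7g, with 5 of 5 unadjusted p-values above 0.05. The members' median was 0.11, against -0.17 over the 66 miRNA genes and 0.01 over 10742 tested genes.

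In P09 against P04, 0 members were upregulated and 0 downregulated, beside 0% and 18.2% of the 66 miRNA genes. On the all-gene scale all 5 log2 fold changes were negative, with a median of -0.38 against -0.50 over the 66 miRNA genes. The largest was that of Mir98, -0.68 ± 0.17 (SE, adjusted p = 0.0072 from edgeR), which is under the fold change threshold. Mirlet7g had -0.56 (95% interval -0.97 to -0.14, adjusted p = 0.075 from edgeR). The direction of Mirlet7a-1, Mirlet7f-1, Mirlet7f-2 and Mirlet7g in this comparison depended on the scale. With TMM factors from the miRNA genes and their summed count as library size, named miRNA scaling here, their log2 fold changes were 0.22, 0.19, 0.20 and 0.02, and this scale shifts the median of all tested genes by 0.53. The value of Mir98 kept its sign there but was -0.11 (adjusted p = 0.69 from edgeR).

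In P09 against P01, across the loss of regenerative capacity, Mir98 was downregulated. Its mean was 751 ± 86.5 normalized counts (SD, n = 4) at P09 and 1502 ± 238 at P01, giving in edgeR a log2 fold change of -1.0 ± 0.18 (SE) and an adjusted p of 3.5e-05. It was the 1 member of 5 that passed, beside 40.9% of the 66 miRNA genes that were downregulated and 1.52% that were upregulated. The others had log2 fold changes of -0.18 to -0.35 on this scale and did not pass. Under miRNA scaling (median shift 0.73) the value for Mir98 was -0.25 and no member was downregulated (10 of the 66 miRNA genes were, and 9 were upregulated), while Mirlet7a-1, Mirlet7f-1, Mirlet7f-2 and Mirlet7g had 0.46, 0.48, 0.56 and 0.42. As a share of the miRNA counts, Mir98 took 0.822% ± 0.0524 at P09 and 1.01% ± 0.0710 at P01. The same share of Mirlet7f-2 was 2.61% ± 0.122 at P09 and 1.84% ± 0.145 at P01. Without a filter on low counts the log2 fold change of Mir98 was -0.84 and its call was lost.

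In P23 against P09, 3 of 5 members were upregulated, beside 28.8% of the 66 miRNA genes, and 0 were downregulated, beside 15.2%. Mirlet7f-2 averaged 5939 ± 1308 normalized counts at P23 and 2386 ± 205 at P09 (SD, n = 4 each), giving in edgeR a log2 fold change of 1.32 ± 0.16 (SE) and an adjusted p of 2.7e-07. Mirlet7a-1 averaged 4096 ± 889 at P23 and 2156 ± 255 at P09, giving in edgeR a log2 fold change of 0.93 ± 0.17 (SE) and an adjusted p of 1.0e-04. Mirlet7f-1 averaged 18722 ± 3703 at P23 and 10064 ± 1994 at P09, giving in edgeR a log2 fold change of 0.90 ± 0.20 (SE) and an adjusted p of 8.4e-04. Mirlet7g had a log2 fold change of 0.65 (95% interval 0.24 to 1.07, adjusted p = 0.023 from edgeR) and Mir98 of 0.42 (0.08 to 0.77, adjusted p = 0.075 from edgeR). Mirlet7f-2 remained upregulated under miRNA scaling (1.13) and in all other alternatives. The calls of Mirlet7a-1 and Mirlet7f-1 lay close to the fold change threshold and were lost under miRNA scaling (0.75 and 0.72, median shift -0.14, with 14 of the 66 miRNA genes upregulated and 12 downregulated) and without a filter on low counts (0.85 and 0.82). That of Mirlet7a-1 was also lost without P23 replicate 8 (0.81), and that of Mirlet7f-1 without P09 replicate 3 (0.84) or P23 replicate 5 (0.84).

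In P23 against P04, 1 member was upregulated, beside 16.7% of the 66 miRNA genes, and 0 were downregulated, beside 27.3%. This was Mirlet7f-2, giving in edgeR a log2 fold change of 0.98 ± 0.16 (SE) and an adjusted p of 1.2e-05. Mirlet7a-1 had 0.61 (95% interval 0.28 to 0.94, adjusted p = 0.0042 from edgeR) and Mirlet7f-1 0.52 (0.13 to 0.90, adjusted p = 0.034 from edgeR), both under the fold change threshold. Under miRNA scaling (median shift 0.39) both passed, at 0.97 and 0.91, as 2 of 21 upregulated miRNA genes beside 12 downregulated ones, and Mir98 had 0.12 in place of -0.25.

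In P23 against P01, 1 member was upregulated, beside 18.2% of the 66 miRNA genes, and 0 were downregulated, beside 33.3%. Mirlet7f-2 averaged 5939 ± 1308 normalized counts at P23 and 2701 ± 109 at P01 (SD, n = 4 each), giving in edgeR a log2 fold change of 1.14 ± 0.16 (SE) and an adjusted p of 7.9e-07. Mirlet7a-1 and Mirlet7f-1 had 0.65 (adjusted p = 0.0020) and 0.62 (adjusted p = 0.0088) from edgeR, below the fold change threshold. Mirlet7g had 0.30 (95% interval -0.11 to 0.72) and Mir98 -0.58 (-0.92 to -0.23, adjusted p = 0.0071 from edgeR). Under miRNA scaling (median shift 0.58) the upregulated members were 4, namely Mirlet7f-2 (1.69), Mirlet7a-1 (1.21), Mirlet7f-1 (1.20) and Mirlet7g (0.92), and Mir98 was at -0.01. On that scale 26 of the 66 miRNA genes were upregulated and 16 downregulated. On the all-gene scale the members' median was 0.62, against -0.20 over the 66 miRNA genes, whose median under miRNA scaling was 0.52. The comparisons share libraries with each other and are not independent.

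**Figure D2:**
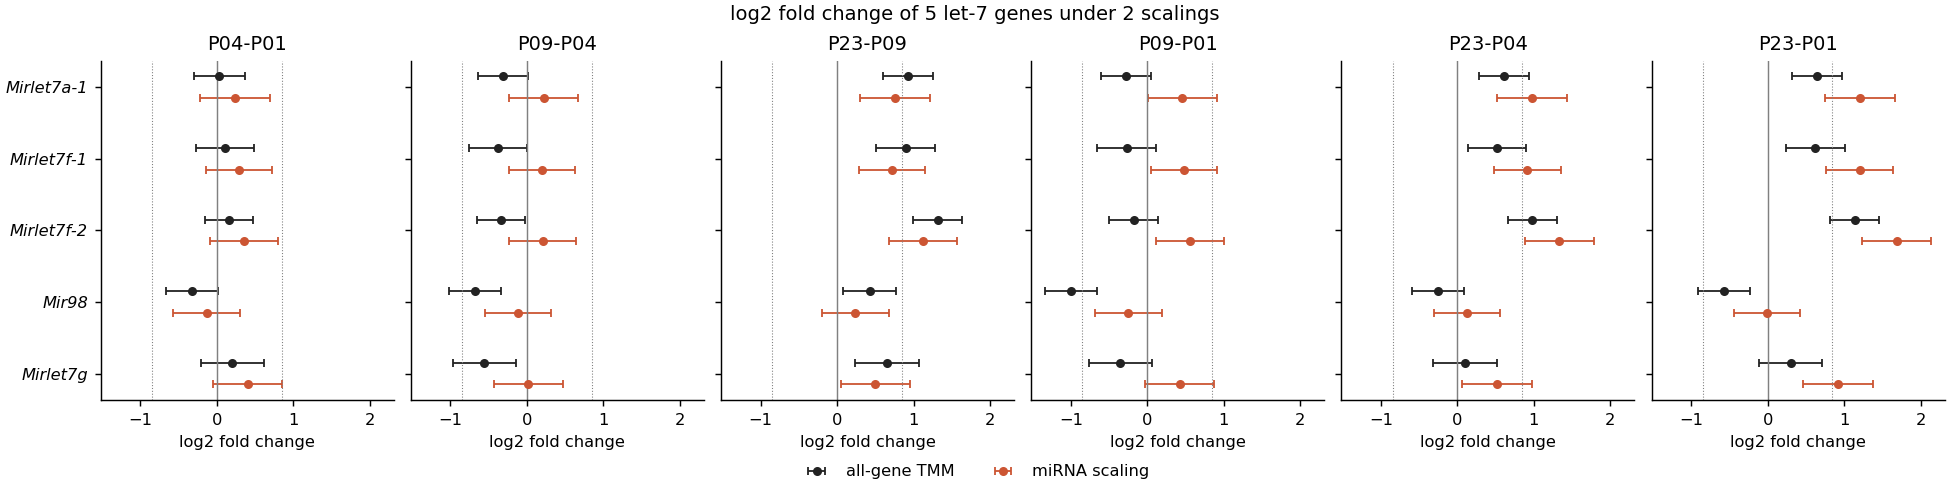
log2 fold changes of 5 let-7 genes in 6 comparisons (later minus earlier day), with all-gene TMM in black and miRNA scaling in orange, bars at 95% intervals and dotted lines at a fold change of 1.8. Mirlet7f-2 lies above the upper dotted line in P23 against P09, P04 and P01 on both scales, whereas Mir98 in P09 against P01 lies below the lower line on the all-gene scale alone (-1.0 and -0.25).

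Ratios of neighbours within a library do not depend on how libraries are scaled. Of the chromosome X pair, Mirlet7f-2 had 1.70, 1.58, 1.95 and 2.07 counts per count of Mir98 at P01, and 2.85, 2.84, 2.22 and 2.32 at P04. The ratio was 2.93, 3.12, 3.42 and 3.28 at P09 and 5.76, 5.55, 5.89 and 6.38 at P23. No library of a time point overlapped with those of another, and the ratio was higher at each later day. Mirlet7f-1 gives the same mature strand as Mirlet7f-2, and how far reads of that shared strand enter this ratio was not tested. The mean ratio was 5.90 ± 0.354 at P23 and 1.82 ± 0.223 at P01 (SD, n = 4 each), a difference of 1.70 on the log2 scale. P23 exceeded P09 by 0.89, P09 exceeded P04 by 0.32 and P04 exceeded P01 by 0.49 on that scale. Each of the 6 comparisons gave the smallest p that 4 libraries against 4 allow (two-sided exact permutation test, p = 0.0286), which is 0.0762 after Benjamini-Hochberg adjustment over 24 tests and so fails the correction. In 1 permutation test over all 4 time points, chosen after seeing the data, p was 1e-05, the smallest that 100000 resamples can give, and 4e-05 after adjustment over 4 pairs.

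The chromosome 13 pair gave no such difference. Mirlet7f-1 had 4.69 ± 0.989 (SD, n = 4) counts per count of Mirlet7a-1 at P01, 4.88 ± 1.05 in P04 libraries, 4.70 ± 0.916 in P09 libraries and 4.60 ± 0.464 in P23 libraries. The libraries overlapped in all 6 comparisons, with log2 differences of -0.07 to 0.05, and the single permutation test over 4 time points gave p = 0.986. These values do not show that the ratio is constant, since the log2 ratio had SDs of 0.15 to 0.31 within a time point. Both genes share their mature strand with a copy elsewhere, and how far such reads enter the ratio was not tested.

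The copies of one mature strand were compared the same way. Mirlet7f-2 had 0.198 to 0.259 counts per count of Mirlet7f-1 at P01 and 0.189 to 0.268 at P04. The ratio was 0.195, 0.246, 0.241 and 0.285 at P09, and 0.336, 0.301, 0.298 and 0.329 at P23, so that P23 lay above the other time points, which overlapped among themselves. The log2 difference was 0.40 for P23 against P09, 0.42 against P04 and 0.49 against P01 (two-sided exact permutation p = 0.0286 each, adjusted p = 0.0762). The permutation test over 4 time points, chosen after seeing the data, gave p = 0.0185 (adjusted p = 0.0370 over 4 pairs). Mirlet7a-1 had 0.862 to 1.20 counts per count of Mirlet7a-2, with overlap in all 6 comparisons and permutation p = 0.418 over 4 time points. How far reads of the shared strand enter these ratios was not tested.

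**Figure D3:**
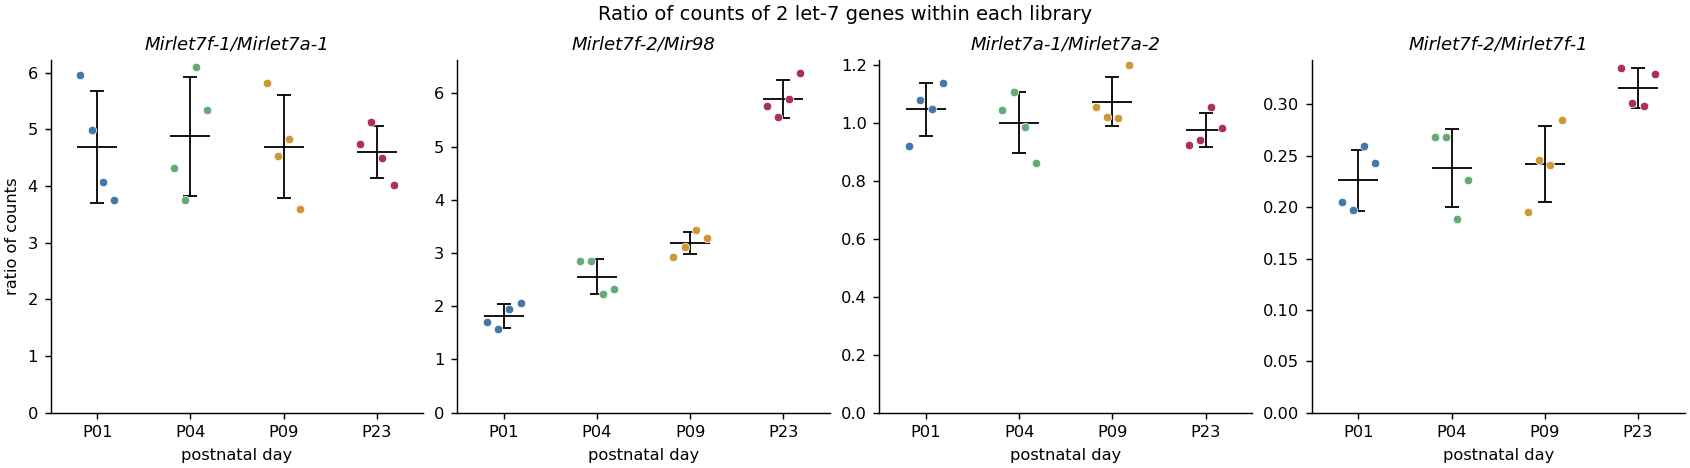
Ratio of the counts of 2 let-7 genes within each library by postnatal day, with 1 point per library and bars at the mean and SD of 4 libraries. The Mirlet7f-2/Mir98 ratio lies at 5.55 to 6.38 at P23 and 1.58 to 2.07 at P01 with no overlap between days, and the Mirlet7f-1/Mirlet7a-1 ratio overlaps across all days.

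The host genes were measured through mRNA fragments. Huwe1, the host of Mirlet7f-2 and Mir98, averaged 245 ± 51.3 normalized counts at P23 and 137 ± 26.8 at P01, giving in edgeR a log2 fold change of 0.84 ± 0.16 (SE) and an adjusted p of 3.9e-05, just under the fold change threshold. It had 0.63 in P09 against P01 (adjusted p = 0.0017 from edgeR), where Mir98 was downregulated. Wdr82, the host of Mirlet7g, averaged 35.3 ± 9.31 normalized counts at P01, 55.5 ± 6.78 at P09 and 48.0 ± 7.70 at P23, and passed in no comparison on the all-gene scale. Under miRNA scaling both hosts passed in P09 against P01 (Huwe1 1.35 and Wdr82 1.38) and in P23 against P01 (1.48 and 1.06). Huwe1 also passed there in P23 against P04 (0.94) and Wdr82 in P09 against P04 (1.01). Fragments of host mRNA in a small RNA library need not follow the level of the whole transcript.

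Across the 16 libraries, the members differed in which miRNA genes they resembled. Of 61 other miRNA genes with a mean of 300, Mirlet7a-2 (r = 0.96), Mir139 (0.88) and Mir378c (0.87) had the highest Pearson correlation of log2 normalized counts with Mirlet7a-1. For Mirlet7f-2 they were Mirlet7a-2 (0.97), Mir139 (0.94) and Mir378c (0.94), and for Mirlet7f-1 Mir185 (0.96), Mir378c (0.94) and Mir145a (0.93). Mir98 was nearest to Mir342 (0.90), Mir210 (0.89) and Mir130a (0.89), and Mirlet7g to Mir30a (0.82), Mir23a (0.70) and Mir151 (0.70). Among the members, Mirlet7a-1 and Mirlet7f-2 on different chromosomes had r = 0.94. The neighbours Mirlet7a-1 and Mirlet7f-1 had r = 0.83, whereas the neighbours Mirlet7f-2 and Mir98 had r = 0.16. All values share the depth and scaling of the same libraries and are given as a description. Mirlet7a-1 and Mirlet7a-2 give the same mature strand, as do Mirlet7f-1 and Mirlet7f-2. How far shared reads enter these correlations was not tested.

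Of the 8 other let-7 genes, 5 had counts. Mirlet7a-2 was upregulated in P23 against P09 (log2 fold change 1.08, adjusted p = 8.8e-06 from edgeR), close to the value of Mirlet7a-1. Both genes give the same mature strand, so that their values need not be independent, and how far shared reads enter them was not tested. Mirlet7c-1 was upregulated in P23 against P09 (1.15), P04 (1.17) and P01 (1.35), the same 3 comparisons as Mirlet7f-2. Mirlet7e was downregulated in P09 against P01 (-1.06, adjusted p = 1.2e-05 from edgeR), as was Mir7k (let-7k, -0.91, adjusted p = 5.3e-05 from edgeR), beside -1.0 for Mir98, and under miRNA scaling these were -0.33 and -0.18 with no call, beside -0.25 for Mir98. Mir7j, the gene without the shared seed, was upregulated in P23 against P01 (1.66, adjusted p = 8.2e-09 from edgeR) and had 546 ± 142 normalized counts at P23 and 172 ± 19.6 at P01.

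Fragments of mRNA in the same libraries allowed a view of genes that process let-7. Of 26 genes of the processing list, 24 were in the table, the remaining names being older ones of Tut4 and Tut7, and 22 were tested. At the fold change and adjusted p thresholds, without a minimum mean, 0 were higher and 5 lower in P09 against P01, beside 6.18% and 11.5% of all tested genes. In P23 against P01, 2 were higher and 7 lower, beside 13.5% and 16.6% of all tested genes, with a list median of -0.45 against 0.00 over all tested genes. Under miRNA scaling, 6 were higher and 3 lower in P09 against P01, beside 35.2% and 5.44% of all tested genes. On that scale 5 were higher and 5 lower in P23 against P01, beside 31.2% and 9.87% of all tested genes. Lin28b, which blocks let-7 maturation, fell at P23 to 1.06 ± 1.56 normalized counts, against 19.2 ± 6.71 at P01 (log2 fold change -3.99, adjusted p = 3.0e-07 from edgeR). Its raw counts were 13, 15, 11 and 9 in the P01 libraries, 10, 17, 16 and 13 in the P04 libraries, 6, 5, 7 and 7 at P09, and 3, 1, 0 and 0 at P23. Trim71, a let-7 target that in worms and mammals promotes the early state, had 1.71 ± 1.18 normalized counts at P23 and 71.3 ± 40.5 at P01 (-5.34, adjusted p = 1.2e-06 from edgeR).

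Among the core machinery, Dgcr8, the partner of Drosha, fell in P23 against P01 (-1.87, adjusted p = 1.7e-08 from edgeR), as did Ran (-2.22), which drives nuclear export by Xpo5, and the Argonaute gene Ago4 (-1.89). Tut4, which adds uridines to let-7 precursors, fell by 0.86 on the log2 scale, and Tnrc6a, a silencing partner of Argonaute, fell by 0.87, calls that were lost under miRNA scaling (-0.28 and -0.27). The Argonaute gene Ago3 (1.06) and Tnrc6b (1.21), a relative of Tnrc6a, rose. Ran, Dgcr8, Ago4, Lin28b and Trim71 also passed in P09 against P01, at -1.89, -1.33, -1.56, -2.01 and -4.30. Of the genes that did not pass in P23 against P01, the largest positive values were those of Drosha (0.75) and Xpo5 (0.71) and the largest negative ones those of Hnrnpa1 (-0.80) and Khsrp (-0.63). Dicer1 had 39.1 ± 12.2 normalized counts at P23 and 54.0 ± 15.1 at P01 (-0.47, adjusted p = 0.056 from edgeR). Ran can share reads with other genomic copies, and its value is uncertain for that reason.

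Of 30 known let-7 target genes, all were in the table and 24 were tested. In P09 against P01, 2 were higher and 7 lower, beside 6.18% and 11.5% of all tested genes. In P23 against P01, 2 were higher and 11 lower, beside 13.5% and 16.6% of all tested genes. Under miRNA scaling the split was 9 higher and 5 lower in P09 against P01, beside 35.2% and 5.44% of all tested genes. It was 5 higher and 8 lower in P23 against P01, beside 31.2% and 9.87%. On the all-gene scale the list median was -0.71 in P23 against P01, against 0.00 over all tested genes. In P09 against P01 it was -0.17 on that scale, against 0.02. Under miRNA scaling the medians over all tested genes were 0.58 in P23 against P01 and 0.75 in P09 against P01. Lin28a, Lin28b, Trim71 and Dicer1 belong to both lists, of which Lin28a was not tested. Each mRNA-binding protein gene of the Igf2bp family was lower in P23 against P01. Igf2bp1 had 1.05 ± 0.811 normalized counts at P23 and 22.4 ± 5.92 at P01 (log2 fold change -4.27, adjusted p = 1.6e-08 from edgeR). Its raw counts were 15, 8, 21 and 15 in the P01 libraries and 0, 2, 1 and 1 at P23. Igf2bp3 and Igf2bp2 had -3.69 and -1.74, and Igf2bp3 had 1, 1, 3 and 1 raw counts at P23. At P04 Igf2bp3 was at 24.6 ± 2.45 normalized counts, against 22.1 ± 2.09 at P01. Hmga1, a chromatin protein of proliferating cells, fell to 25.8 ± 3.57 normalized counts at P23, against 223 ± 35.5 at P01 (-3.11, adjusted p = 6.7e-14 from edgeR). In between, Hmga1 was at 44.9 ± 13.8 at P09 and 67.4 ± 16.0 at P04. Hmga1b is a near copy of Hmga1, so that this value is uncertain.

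Of the insulin and IGF signalling genes, Irs2, an adaptor of both receptors, had 37.7 ± 15.7 normalized counts at P23 and 354 ± 152 at P01 (-3.20, adjusted p = 3.5e-05 from edgeR), and Igf1r, the IGF1 receptor, had -1.41. Insr, the insulin receptor, moved the other way, with 165 ± 37.7 normalized counts at P23 and 74.3 ± 12.9 at P01 (1.15, adjusted p = 9.3e-07 from edgeR). Among cell cycle and growth regulators, Myc (-2.06), Mycn (-1.40) and the phosphatase gene Cdc25a (-0.99) fell in P23 against P01, while E2f6, a repressor of the E2F family, rose (1.5). The calls of Igf1r, Mycn and Cdc25a were lost under miRNA scaling (-0.80, -0.83 and -0.43). Igf2bp1, Igf2bp2, Myc, Irs2, Hmga1, Lin28b and Trim71 were lower and Insr and E2f6 higher in P09 against P01 on the all-gene scale. Of these, Igf2bp2 (-0.27) and Myc (-0.72) did not pass under miRNA scaling. Of the target genes that did not pass in P23 against P01, Hras (0.55) and Cdc34 (0.45) had the largest positive values and Cdk6 (-0.76) the largest negative one. Whether any of these changes depends on let-7 was not tested.

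**Figure D4:**
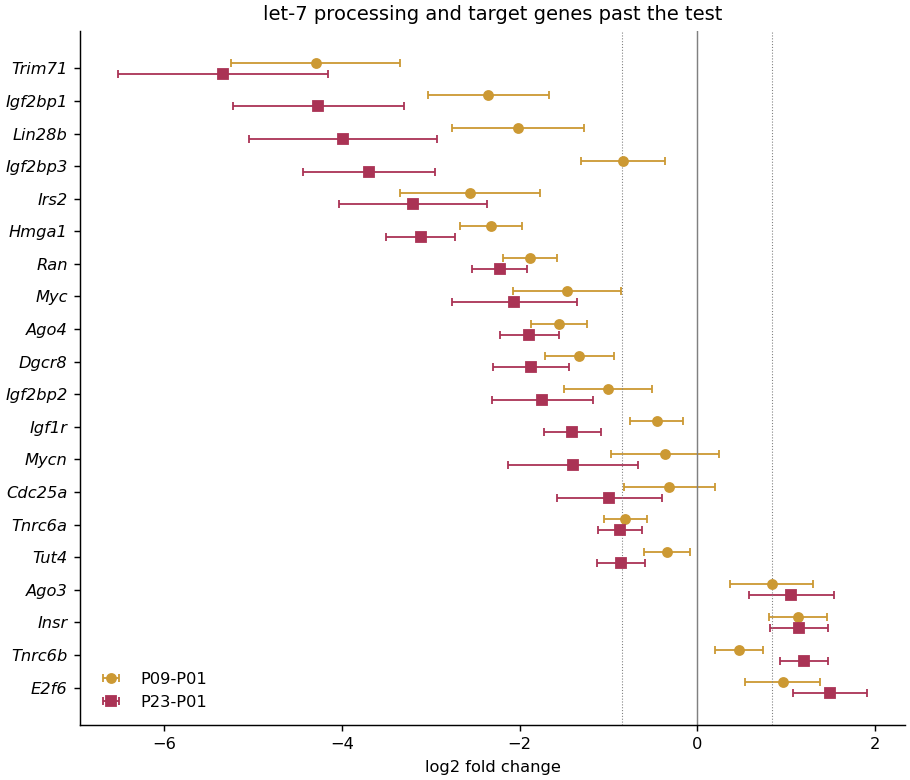
log2 fold changes (later minus P01) of the let-7 processing and target genes that passed in P09 against P01 or in P23 against P01, with bars at 95% intervals and dotted lines at a fold change of 1.8. Trim71 has the largest fall at P23 (-5.34), and Ago3, Insr, Tnrc6b and E2f6 lie to the right of 0.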

How the data were processed

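Small RNA libraries of 16 mouse ventricles were made by the authors with the SMARTer smRNA-Seq kit, which has no molecular identifiers. Per the labels and the study's methods the authors used bcl2fastq, Trimmomatic, STAR (GRCm38.p6) and featureCounts, and the deposited values are whole, unnormalized counts per gene. Not given in the sources used here were tool versions, strand setting and treatment of multiply matching reads. Of the value columns, 16 were matched to groups by name and 1 was not used. Libraries carry the animal number of the column names, and whether other steps were shared is not stated.

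The counts of 10742 genes that passed filterByExpr (minimum count 10, total 15) were fitted with edgeR 4.0.16 (TMM, robust glmQLFit, glmQLFTest, R 4.3.3), with Benjamini-Hochberg adjustment. Log2 ratios within libraries (pseudocount 0.5) were compared by two-sided exact permutation over 70 splits. DESeq2 1.42.0 was an alternative. The steps were tested on simulated data. Standard errors come from the fold change and F statistic. In 24 pairs of libraries of one day, counts differed beyond sampling noise (chi-square per degree of freedom 5.05 to 27.9). All 6 genes, the lists of host, other let-7, processing and target genes, and the 3 nearest miRNA genes are named. The members and lists were chosen with earlier results of these data known. The value of 1 gene of the target list that this rule would name is not reported here.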

Additional observations from a re-analysis of the deposited data

Results flagged for a closer look

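Mirlet7f-2 in P23 replicate 6 had 3991 normalized counts, far from the 6441 to 6808 of the other P23 libraries. Of 36 sets of 4 libraries looked at in this way, 1 stood out, where chance gives about 1 in 20. Within the miRNA counts, Mirlet7f-2 took 3.94% in this library and 4.06% to 4.36% in the other P23 libraries, and miRNA genes took 2.15% of its counts against 2.46% to 3.00% in the others.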

How the results depend on the processing

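The member calls were the same with DESeq2, in fits of only the 2 groups compared, with mitochondrial and rRNA genes left out of the library size and without the mean minimum. Under miRNA scaling, 1 member was upregulated in P23 against P09, 3 in P23 against P04, 4 in P23 against P01, and 0 were downregulated in P09 against P01. The log2 fold changes of Mirlet7a-1, Mirlet7f-1, Mirlet7f-2 and Mirlet7g turned positive in P09 against P04 (0.22, 0.19, 0.20 and 0.019) and in P09 against P01 (0.46, 0.48, 0.56 and 0.42), and that of Mir98 in P23 against P04 (0.12). Of processing genes, 6 were then higher and 3 lower in P09 against P01 and 5 higher in P23 against P01, and of target genes 9 and 5 were higher, beside 35.2% and 31.2% of all tested genes. Without a filter on low counts, 1 member was upregulated in P23 against P09, 0 downregulated in P09 against P01, and 2 processing genes were higher in P09 against P01. The 2 scalings differ in what is taken as unchanged.

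With 1 library left out, the log2 fold change in P04 against P01 was -0.032 to 0.12 for Mirlet7a-1 and -0.092 to 0.24 for Mirlet7f-1, and in P23 against P09 it was 0.81 to 1.07 and 0.84 to 1.05. The number of processing genes higher in P09 against P01 was 0 to 1 (1 without P01 replicate 1, P01 replicate 5 or P09 replicate 4). That of target genes lower in P23 against P01 was 9 to 10, against 11 with all libraries, beside 16.6% of all tested genes. The log2 difference of the Mirlet7f-1/Mirlet7a-1 ratio was -0.063 to 0.18 in P04 against P01, -0.17 to 0.071 in P09 against P04, -0.14 to 0.10 in P23 against P09, -0.11 to 0.13 in P09 against P01, -0.18 to 0.051 in P23 against P04 and -0.11 to 0.11 in P23 against P01. That of Mirlet7a-1/Mirlet7a-2 was -0.13 to 0.0017 in P04 against P01, -0.023 to 0.079 in P09 against P01 and -0.10 to 0.020 in P23 against P04. That of Mirlet7f-2/Mirlet7f-1 was -0.080 to 0.12 in P09 against P04. With 3 libraries against 4 the exact permutation test cannot go below 0.0571. The planned ratios with Mirlet7d could not be made, as its counts are 0.

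No paired analysis was possible because the columns of the count table carry animal numbers that are not the replicate numbers of the labels. By the study's methods each library also comes from a different pup, so that no animal links the days and no pairing by animal exists. Depth limits the low target genes most: Lin28b rests on at most 17 counts in a library. At P23, Trim71 and Igf2bp1 had at most 2 counts in a library, Igf2bp3 at most 3 and Myc at most 10.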

Other observations

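Lin28a and Hmga2, a pair of genes closely tied to let-7, had too few counts to be tested. Hmga2 had 4, 5, 5 and 3 counts in the P01 libraries, 1, 4, 2 and 1 in the P04 libraries, 5, 1, 2 and 5 in the P09 libraries and 0 in every P23 library. Lin28a had 2 counts in P01 replicate 1, 1 in P04 replicate 4 and 0 in the other libraries. Ccnd2 and Ccnd1, which encode D-type cyclins and are on the target list, had log2 fold changes of 0.54 and 0.50 in P09 against P01. In P23 against P01 they had -0.15 and -0.54. All of these were under the fold change threshold in edgeR on the all-gene scale. Under miRNA scaling, which is not given for these genes, the median of all tested genes shifts by 0.73 and 0.58 in these comparisons.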
